A study of Mus musculus with 24 samples.

Results

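The genes described here are 46 sarcomere genes other than the myosin heavy chains and the actins, out of 24537 genes in the deposited count table. They were taken by symbol and cover the troponins, tropomyosins, myosin light chains, myosin-binding proteins, light chain kinases, titin and nebulin, the proteins of the thin filament's pointed end, the Z-disc and the M-band, and desmin. Whole extensor digitorum longus (EDL) and soleus (SOL) muscles of 2-month-old mice were sequenced, and 24 libraries were made, with 2 for each muscle, genotype and time point. Treated mice were Acta1-Cre+/4Fhet (Cre+) and controls Acta1-Cre-/4Fhet (Cre-). All mice carried 1 copy of 4F, a cassette of Oct4, Sox2, Klf4 and c-Myc (OSKM), ate regular chow, and drank water with 1 mg/ml of doxycycline (Dox) and were taken after 2.5 days, after 5.5 days or after 8.5 days, so the controls received Dox as well. Acta1-Cre removes a stop cassette in front of the Dox-dependent activator in myofibers, while the RNA came from all cells of the muscle. The submitters treated the libraries of 5.5 days as outliers, and the comparisons below rest on the 16 libraries of 2.5 and 8.5 days unless 5.5 days is named.

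In the sarcomere, calcium binds troponin C, and troponins I and T then move tropomyosin along the thin filament so that myosin can bind actin. Thin filaments are anchored at the Z-disc by alpha-actinin and capped at the pointed end by tropomodulin, and thick filaments are linked at the M-band by myomesins. Titin spans from the Z-disc to the M-band, and desmin ties neighbouring Z-discs together. Many of these proteins come as a fast and a slow isoform from separate genes, and the EDL of the mouse is mostly fast while the SOL holds many slow fibres.

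The sequences upstream of 5 of the genes are shown first, since results below turn on them. Myom3, Ldb3 and Tmod1 are the genes whose response to Cre differed between the muscles at 2.5 days, and Tnni1 and Tnnc1 are the slow isoforms that differed most between EDL and SOL. Each line gives the 250 bases before the start of transcription from RefSeq (build GRCm38.p6), 5′ to 3′ on the gene's own strand, and capitals mark matches to the E-box, MEF2 and SRF motifs.
Myom3: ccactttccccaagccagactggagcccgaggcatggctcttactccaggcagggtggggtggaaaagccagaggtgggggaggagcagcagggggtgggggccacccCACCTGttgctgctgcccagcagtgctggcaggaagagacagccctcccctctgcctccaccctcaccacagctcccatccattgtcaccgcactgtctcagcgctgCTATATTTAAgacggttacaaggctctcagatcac
Ldb3: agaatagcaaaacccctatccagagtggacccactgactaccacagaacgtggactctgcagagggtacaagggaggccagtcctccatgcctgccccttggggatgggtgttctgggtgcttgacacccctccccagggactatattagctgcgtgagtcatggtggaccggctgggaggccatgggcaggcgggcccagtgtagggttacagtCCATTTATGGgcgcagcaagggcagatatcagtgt
Tmod1: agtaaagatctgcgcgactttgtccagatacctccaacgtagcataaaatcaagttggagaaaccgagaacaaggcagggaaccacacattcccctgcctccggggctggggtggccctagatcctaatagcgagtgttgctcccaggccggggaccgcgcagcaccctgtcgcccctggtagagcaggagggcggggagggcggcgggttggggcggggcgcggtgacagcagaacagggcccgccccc
Tnni1: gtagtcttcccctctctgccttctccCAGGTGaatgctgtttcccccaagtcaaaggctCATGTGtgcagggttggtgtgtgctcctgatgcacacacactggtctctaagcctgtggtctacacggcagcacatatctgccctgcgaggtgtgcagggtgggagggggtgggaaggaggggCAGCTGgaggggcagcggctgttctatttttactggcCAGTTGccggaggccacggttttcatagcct
Tnnc1: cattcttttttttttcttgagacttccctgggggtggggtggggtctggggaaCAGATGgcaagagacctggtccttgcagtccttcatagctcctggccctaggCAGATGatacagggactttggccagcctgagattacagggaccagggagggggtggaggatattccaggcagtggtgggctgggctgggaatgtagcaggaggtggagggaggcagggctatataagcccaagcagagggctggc
The stretches lie at chr4:135759465-135759714 (plus strand), chr14:34588682-34588931 (minus strand), chr4:46038972-46039221 (plus strand), chr1:135799171-135799420 (plus strand) and chr14:31208062-31208311 (plus strand). The stretch of Myom3 held an E-box 142 bases and a MEF2 match 35 bases before the start. An SRF match lay 35 bases before the start of Ldb3, and Tmod1 had none of the 3 motifs. Tnni1 held 4 E-boxes and Tnnc1 held 2.

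A promoter was given for 34 of the 46 genes, and 32 of these began within 100 bases of the start in the count table. Not searched were Tnnt3, Tnni2, Myl2, Mylk2, Mylk4, Myoz1, Myoz3, Actn3, Neb, Tcap, Myot, Myom2, Xirp1 and Lmod3. For the 32 the promoter nearest that start was used. For all genes it was the first listed per symbol, without this limit, so the percents below compare unlike choices. Counted on both strands, the E-box (CANNTG, bound by MyoD and related factors) was in 29 of the 32 (90.6%) and in 66.0% of 27025 promoters of the same 250 bases. The 10-base MEF2 motif was in 5 (15.6%, against 3.01% of all), in Myoz2, Ttn, Myom3, Xirp2 and Synpo2. The 10-base SRF motif was in 3 (9.38%, against 1.4%), in Myl3, Ldb3 and Myom1. CATTCC was in 8 (25.0%, against 12.6%) and CACCC in 22 (68.8%, against 51.3%). CACGTG, which is 1 form of the E-box, was in 1 (3.12%, against 6.05%), and the octamer ATTTGCAT, known as a site of Oct4, was in 0 (against 1.61%). These matches describe letters in a window and were not set against the expression values.

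Total counts ranged from 36088781 to 54679082 per library, and no sarcomere gene had fewer than 68 counts in any library. All 46 genes passed the filter on low counts. FPKM below is the count per kilobase of the listed transcript and per 1000000 counts of the library. Log2 fold changes come from the fit, whose TMM scaling (trimmed mean of M values, set by the bulk of the genes) moves Cre+ EDL down against FPKM, so a fold need not equal a ratio of FPKM values. The labels do not tie libraries to mice, so p-values measure the spread between these libraries. The genes were among the most abundant transcripts of the muscle, with 12 of them in the 20 highest mean FPKM of the whole table, led by Tnnt3 and Mylpf. They took 9.38% to 15.6% of all counts of a library. The induced transcript Pou5f1 (Oct4) was at 17.5 and 70.5 FPKM in the Cre+ EDL libraries of 2.5 days and at 76.2 and 57.7 at 8.5 days. In SOL it was at 5.02 and 9.62 at 2.5 days and at 12.2 and 6.19 at 8.5 days, against at most 0.0896 in the Cre- libraries of both muscles. At 5.5 days the Cre+ libraries held 1.02 and 27.7 FPKM in EDL and 0.0785 and 0.387 in SOL, so the label Cre+ went with little Pou5f1 in 3 of these 4 libraries.

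The genes separated EDL from SOL of Cre- mice. Of the 46, 19 were higher in EDL and 21 lower, by edgeR's quasi-likelihood test. A call needed an adjusted p below 0.05 and a log2 fold change beyond 0.5 in size (means of 2.5 and 8.5 days, 4 libraries a side). Over all 15372 genes tested, 10.8% were higher and 11.1% lower. In the Cre- EDL libraries of 2.5 and 8.5 days Tnni1, slow troponin I, was at 11.2 to 108 FPKM, and in SOL at 2415 to 3534. The ranges were far apart, and the log2 difference was -6.11 ± 0.59 (SE), a 69.0-fold lower level in EDL (adjusted p = 6.50e-06). Slow troponin C (Tnnc1) was 69.2-fold lower, slow troponin T (Tnnt1) 62.5-fold, the slow tropomyosin Tpm3 50.7-fold, and the slow light chains Myl3 and Myl2 61.7-fold and 46.5-fold. Of the 11 genes of the slow class, 10 were lower in EDL and 0 higher, with a median log2 difference of -5.54, against 0.01 over all genes.

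The fast isoforms differed far less, and SOL expressed them too. Of the 10 genes of the fast class, 10 were higher in EDL, with a median of 1.82. Fast troponin T (Tnnt3), the most abundant of the 46 after scaling for length, was at 19269.6 to 22010.5 FPKM in Cre- EDL and still at 7435 to 13142 in Cre- SOL, a 2.03-fold difference (log2 1.02 ± 0.19). Fast troponins I and C (Tnni2 and Tnnc2) differed 1.95-fold and 1.98-fold, and the fast light chains Myl1 and Mylpf 3.53-fold and 3.95-fold. Larger differences were held by Mybpc2, the fast myosin-binding protein C (21.7-fold), and Actn3, the fast alpha-actinin (16.4-fold). Tnnt3 overlaps Prr33 on the other strand, and the strand setting of the counting is not given in the sources used here.

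Of genes in no isoform pair, the 3 largest differences toward EDL were those of Mybph, a relative of myosin-binding protein C (log2 4.54 ± 0.51), Mylk4, a myosin light chain kinase (2.73 ± 0.26), and Myoz3, a Z-disc myozenin (2.16 ± 0.21). The 3 largest toward SOL were those of the light chain Myl6b (-4.31 ± 0.17), the myomesin Myom3 (-3.73 ± 0.19) and the stretch-responsive I-band protein Ankrd2 (-3.56 ± 0.28). Myom3 was at 6.11 and 7.10 FPKM in Cre- EDL and 86.3 and 118 in Cre- SOL at 2.5 days, while its relative Myom2 went the other way, at 351 and 407 against 100.4 and 121. The muscles also parted the pointed end genes. The tropomodulins Tmod1 and Tmod4, which cap thin filaments, were higher in EDL (log2 1.38 and 0.55), and the leiomodins Lmod2 and Lmod3, which lengthen them, were higher in SOL (-2.74 and -1.09). At the Z-disc, Csrp3 (muscle LIM protein), Actn2 (alpha-actinin-2), Myot, Tcap and Smpx were lower in EDL, by 0.50 (Smpx) to 2.86 (Csrp3) on the log2 scale, as were Nrap, Xirp1 and Des. The values of Neb (0.55), Cmya5 (0.79) and Xirp2 (0.75) were higher. With 1 of the 8 libraries left out, the call was lost in 5 fits for Smpx, in 4 for Xirp2, in 3 for Tcap and in 1 each for Neb and Tmod4. Without the first Cre- EDL library of 8.5 days the value of Xirp2 was 0.39 and that of Neb 0.37, and without the second that of Smpx was -0.35. Mybpc1, Ttn, Ldb3, Myom1, Synpo2 and Trim54 did not pass both thresholds, with log2 differences of -0.50 (Myom1) to 0.31 (Ttn).

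In Cre+ mice the same contrast called 11 genes higher in EDL and 25 lower, against 15.0% and 14.6% of all genes. A call in the same direction in both genotypes was found for 31 genes, in Cre- mice alone for 9 and in Cre+ mice alone for 5. The log2 difference of Myom3 between the muscles was -3.73 in Cre- mice and -1.80 in Cre+ mice, while those of Tnni1 were -6.11 and -6.30. Tmod1 went from 1.38 to 0.37, Myoz3 from 2.16 to 0.86, Mylk4 from 2.73 to 1.62, and Ttn from 0.31 to -0.71. The comparisons of muscles and of genotypes use the same libraries, and the difference between them was tested for each day (given after the SOL values).

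**Figure D1:**
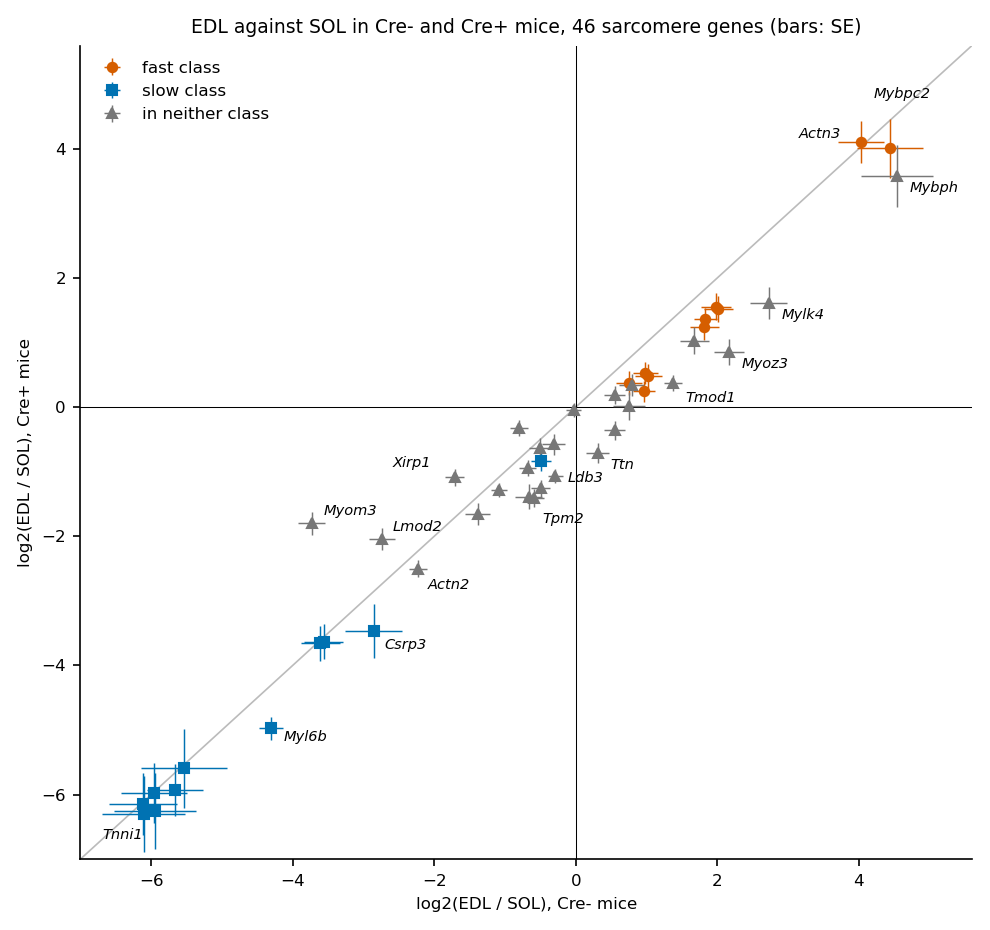
Log2 difference between EDL and SOL for the 46 genes in Cre- mice (x axis) and Cre+ mice (y axis), as means of 2.5 and 8.5 days with standard errors, colored by fast class, slow class or neither, and with a line of equal values. Most of the slow class lies at the lower left near the line, while Myom3 lies above it (-3.73 and -1.80) as do Lmod2, Xirp1 and Des, while 41 of the 46 genes lie below it.

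Expressed as a share of their pair (FPKM, no test), slow isoforms made up little of EDL. Slow troponin I was 0.0732% to 0.692% of both troponin I transcripts in the 12 EDL libraries and 18.3% to 39.9% in the 12 SOL libraries. Slow troponin T was 0.098% to 0.758% in EDL and 21.0% to 44.8% in SOL, and slow troponin C 0.188% to 1.31% and 35.5% to 58.7%. The light chains stood higher in SOL, with slow shares of 66.9% to 86.5% for the essential chain (Myl3 with Myl1) and 54.8% to 79.0% for the regulatory chain (Myl2 with Mylpf), against at most 3.11% and 2.29% in EDL. For tropomyosin (Tpm3 with Tpm1) the slow share was 0.383% to 2.55% in EDL and 40.1% to 67.8% in SOL. Isoform labels did not mean absence from EDL for every protein. Mybpc1, called the slow myosin-binding protein C, made up 33.7% to 49.3% of its pair in EDL, Actn2 9.21% to 16.1% of the alpha-actinins, and the slow myozenin Myoz2 3.02% to 11.8%. In SOL these 3 shares were 93.2% to 98.8%, 88.2% to 95.3% and 65.1% to 81.9%. No EDL library overlapped a SOL library in any of the 9 pairs, so every library matched its muscle label.

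**Figure D2:**
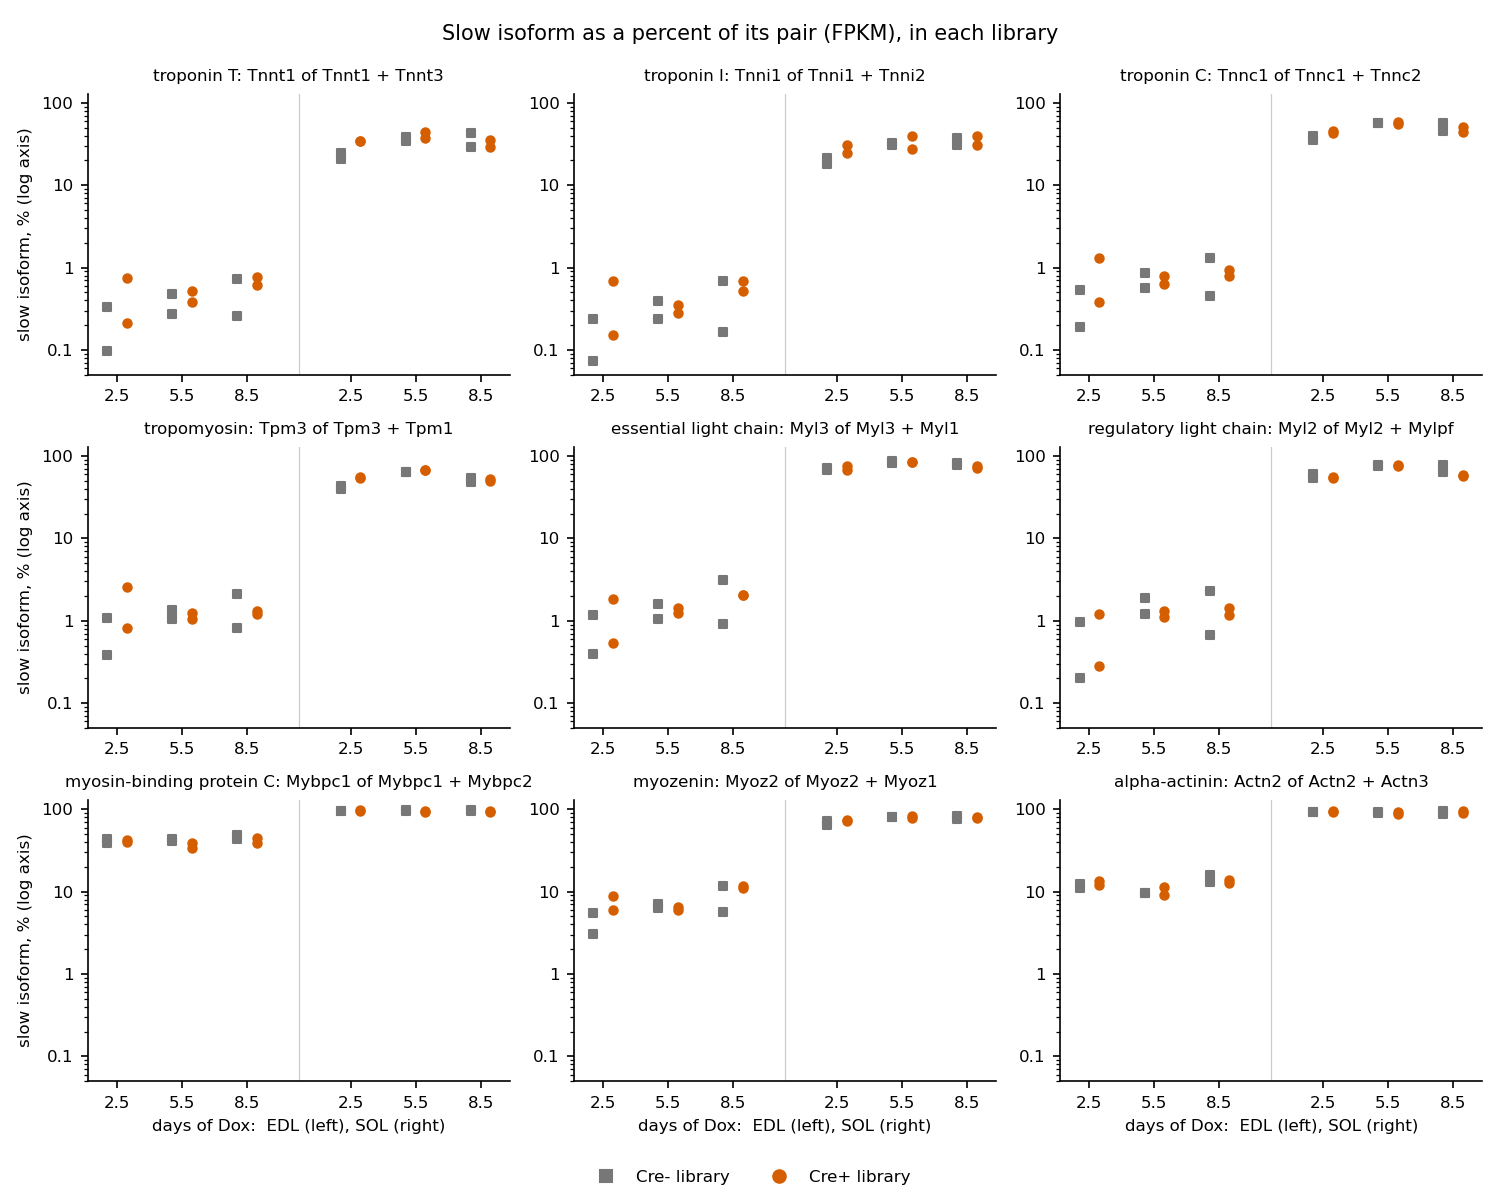
Slow isoform as a percent of the slow and fast FPKM of its pair in each of the 24 libraries (log axis), for 9 pairs, by muscle and days of Dox, with squares for Cre- and circles for Cre+. EDL libraries lie below SOL libraries in every pair, and squares and circles overlap in EDL in all pairs but myozenin at 2.5 days and myosin-binding protein C at 5.5 days, and the slow share of troponin I in EDL spans 0.0732% to 0.692%.

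In 3 of the 4 EDL groups of 2.5 and 8.5 days the slow transcripts of the troponins varied widely between the 2 libraries. Tnnt1 was at 63.4 and 21.6 FPKM in Cre- EDL and 29.5 and 99.8 in Cre+ EDL at 2.5 days, and at 147 and 55.1 in Cre- EDL and 85.8 and 89.4 in Cre+ EDL at 8.5 days. Some libraries were high or low in most pairs. Ranked among the 12 EDL libraries, the slow share of Cre- replicate 1 of 8.5 days held a mean rank of 11.6 over the 9 pairs (lowest 10, highest 12), and that of Cre- replicate 2 of 2.5 days a mean rank of 1.89 (lowest 1, highest 7). Others held no fixed place, such as Cre+ replicate 2 of 8.5 days, with ranks of 2 to 11. Both extremes were controls. The pairs are read from the same libraries and are not independent of each other.

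At 2.5 days of Dox much of the list was lower in Cre+ than in Cre- EDL. Of the 46 genes, 21 fell and 1 rose, while 10.2% of all genes fell and 13.8% rose. The median log2 fold change of the 46 was -0.72, against -0.05 over all genes, and 39 of the 46 values were below 0. The genes took 14.9% and 15.0% of all counts in the Cre- EDL libraries of 2.5 days and 11.2% and 9.38% in the Cre+ libraries. Without the second Cre+ EDL library of 2.5 days, which held more Pou5f1 than the first, 8 genes fell, and without the second Cre- library 14 did. Scaling by library size alone moved the median of all genes to 0.28 and gave 15 falls and 2 rises. Over all 15372 genes tested it gave 610 falls and 4207 rises. The 46 genes stood 0.67 below the median of all genes in both scalings. A scaling shifts all genes alike, so this gap could not change and is no check of the falls. In RNA of whole muscle, fewer myofibers and less RNA of these genes per myofiber cannot be told apart. The 7 other myofiber genes read (Ckm, Acta1, Ckmt2, Pvalb, Atp2a1, Atp2a2 and Mb) summed to 63364 to 69795 FPKM in Cre- EDL and 38881 to 43830.0 in Cre+ EDL, and 4 of the 7 fell. At 8.5 days the sums were 60166 to 63474 and 38431 to 46325, and 3 of the 7 fell. Their part in the falls below was not tested.

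Among the troponins, the 3 fast genes fell and the 3 slow ones did not pass the test. Tnni2, fast troponin I, was at 15626 and 15216 FPKM in Cre- EDL and 8758 and 7680.2 in Cre+ EDL. Both Cre+ libraries were lower than both controls, with a log2 fold change of -1.23 ± 0.23 (adjusted p = 0.00169). Fast troponins T and C changed by -0.94 and -0.90, and the slow genes Tnnt1, Tnni1 and Tnnc1 held 0.26, 0.13 and 0.26, with standard errors of 0.54, 0.68 and 0.55. Tnni2 and Tnnt3 lie 54430 bases apart on chromosome 7. Tropomyosin followed, with Tpm1 at 8555 and 11039 FPKM in controls and 5997 and 4842 in Cre+ (-1.18) and Tpm2, beta-tropomyosin, at 2524 and 2840.2 against 1442 and 1433 (-1.23). The slow Tpm3 was at 92.2 and 42.4 against 49.6 and 127, and these groups overlapped.

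Of the myosin light chains, 0 of 5 passed with edgeR, where 2 had an unadjusted p under 0.05, Myl1 (log2 -0.78 ± 0.29, adjusted p = 0.0611) and Myl6b (-0.56 ± 0.22, adjusted p = 0.0795). DESeq2 called Myl1. Mylpf, the fast regulatory chain, was at 21483 and 23123 FPKM in controls and 24498 and 17879 in Cre+ EDL, with overlapping groups. Kinases of the light chains did change. Mylk4 went from 588 and 399.6 FPKM to 245 and 112 (log2 -1.78 ± 0.35, adjusted p = 0.00252), and Mylk2, the skeletal muscle light chain kinase, from 650.0 and 559 to 443 and 242 (-1.13 ± 0.29). Of the myosin-binding proteins, Mybpc1 fell by 0.71, and Mybpc2 (-0.72 ± 0.58) and Mybph (-0.41 ± 0.60) did not pass. Titin and nebulin, the giant filaments, changed by -0.91 and -0.94.

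At the Z-disc 6 of 13 genes fell and 0 rose. Tcap, telethonin, which caps titin at the Z-disc, had the largest fall of the 46 at this time. Its level was 5604 and 4117 FPKM in the controls and 1686 and 1372 in Cre+ EDL, a 3.97-fold fall (log2 -1.99 ± 0.28, adjusted p = 0.000339). Ldb3, also known as ZASP or Cypher, a PDZ-LIM protein that binds alpha-actinin (chr14:34561254-34588681, GRCm38), went from 916 and 987 to 517 and 502 (-1.23 ± 0.15, adjusted p = 0.000143). The calcineurin-binding Myoz1 changed by -1.27, Myoz3 by -0.88, Actn2 by -0.78 and myotilin (Myot) by -0.75. The fast alpha-actinin Actn3 was at 2687 and 2644 FPKM against 1901 and 1669, without overlap, but did not pass (adjusted p = 0.117). Myoz2, Csrp3, Ankrd2, Synpo2, Smpx and Cmya5 did not pass either, with log2 values of -1.15 (Csrp3) to -0.32 (Cmya5).

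At the pointed end, Tmod1 (chr4:46039222-46116032) was at 127 and 152 FPKM in Cre- EDL and 78.7 and 66.8 in Cre+ EDL (-1.27 ± 0.18, adjusted p = 0.00035). Lmod3 fell by 0.64, and Tmod4 (-0.55) and Lmod2 (-0.20) did not pass. Tmod1 overlaps Tstd2 on the other strand. Nrap, which links nascent myofibrils to the membrane, changed by -0.95, while the Xin proteins Xirp1 and Xirp2 held 0.32 and -0.19. Des (0.10) and the ubiquitin ligase Trim54 (-0.49) did not pass both thresholds. The falls of 2.5 days were not equally firm. Of 13 alternatives other than leaving out 1 library, 4 lost the call of Myoz3. For Myot, Tnnc2, Lmod3 and Mybpc1 3 did, and for Tcap, Ldb3, Tmod1, Tpm1, Tpm2, Tnni2, Myoz1 and Mylk4 0 did. With 1 of the 4 libraries left out, log2 values were -1.39 to -0.50 for Myoz3, -0.91 to -0.54 for Mybpc1 and -2.20 to -1.78 for Tcap.

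**Figure D3:**
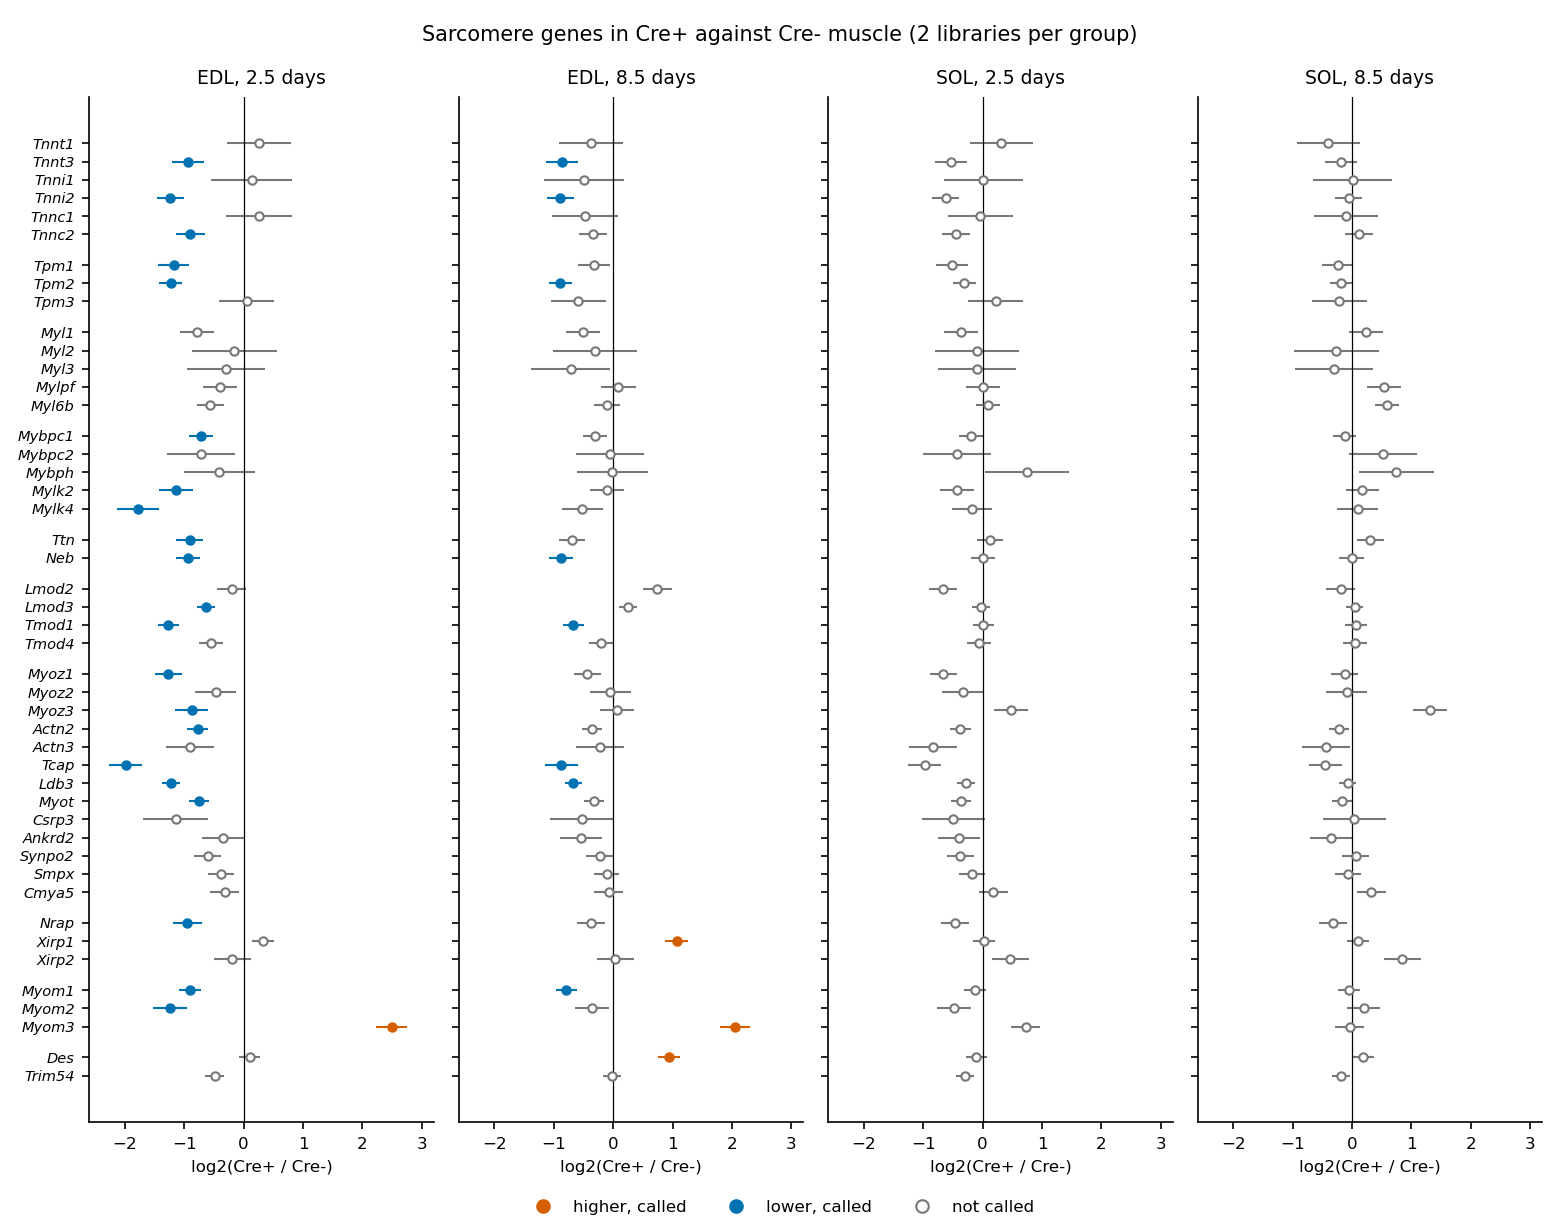
Log2 fold change of Cre+ against Cre- for each of the 46 genes, grouped by role, with bars for the standard error, in EDL and SOL at 2.5 and 8.5 days (2 libraries per group). Filled points passed both thresholds: 21 falls and 1 rise in EDL at 2.5 days, 8 falls and 3 rises in EDL at 8.5 days and 0 in SOL.

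The M-band held both directions. Myom1, the myomesin of all fibres, and Myom2, the myomesin of fast fibres, fell by 0.91 and 1.24 in EDL at 2.5 days. Myom3 (chr4:135759715-135815567) was the 1 gene of the 46 that rose at 2.5 days. It was at 6.11 and 7.10 FPKM in Cre- EDL and 50.6 and 42.8 in Cre+ EDL. Both Cre+ libraries were several times above both controls, a 5.63-fold rise (log2 2.49 ± 0.26, adjusted p = 4.77e-05). At 8.5 days the levels were 14.1 and 11.0 in Cre- and 69.8 and 48.9 in Cre+ EDL, again without overlap (log2 2.06 ± 0.26, adjusted p = 0.000259). The rise passed in every alternative run, also without any 1 of the libraries, with log2 values of 2.32 to 2.82 at 2.5 days and 1.84 to 2.25 at 8.5 days. The Cre+ EDL level stayed below that of Cre- SOL, which was 86.3 and 118 FPKM at 2.5 days and 117 and 213 at 8.5 days. Of the 11 genes of the slow class, 0 rose in EDL at either day, by edgeR and by DESeq2. That class leaves out Myom3, though Myom3 was itself lower in EDL than in SOL of Cre- mice (log2 -3.73).

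**Figure D4:**
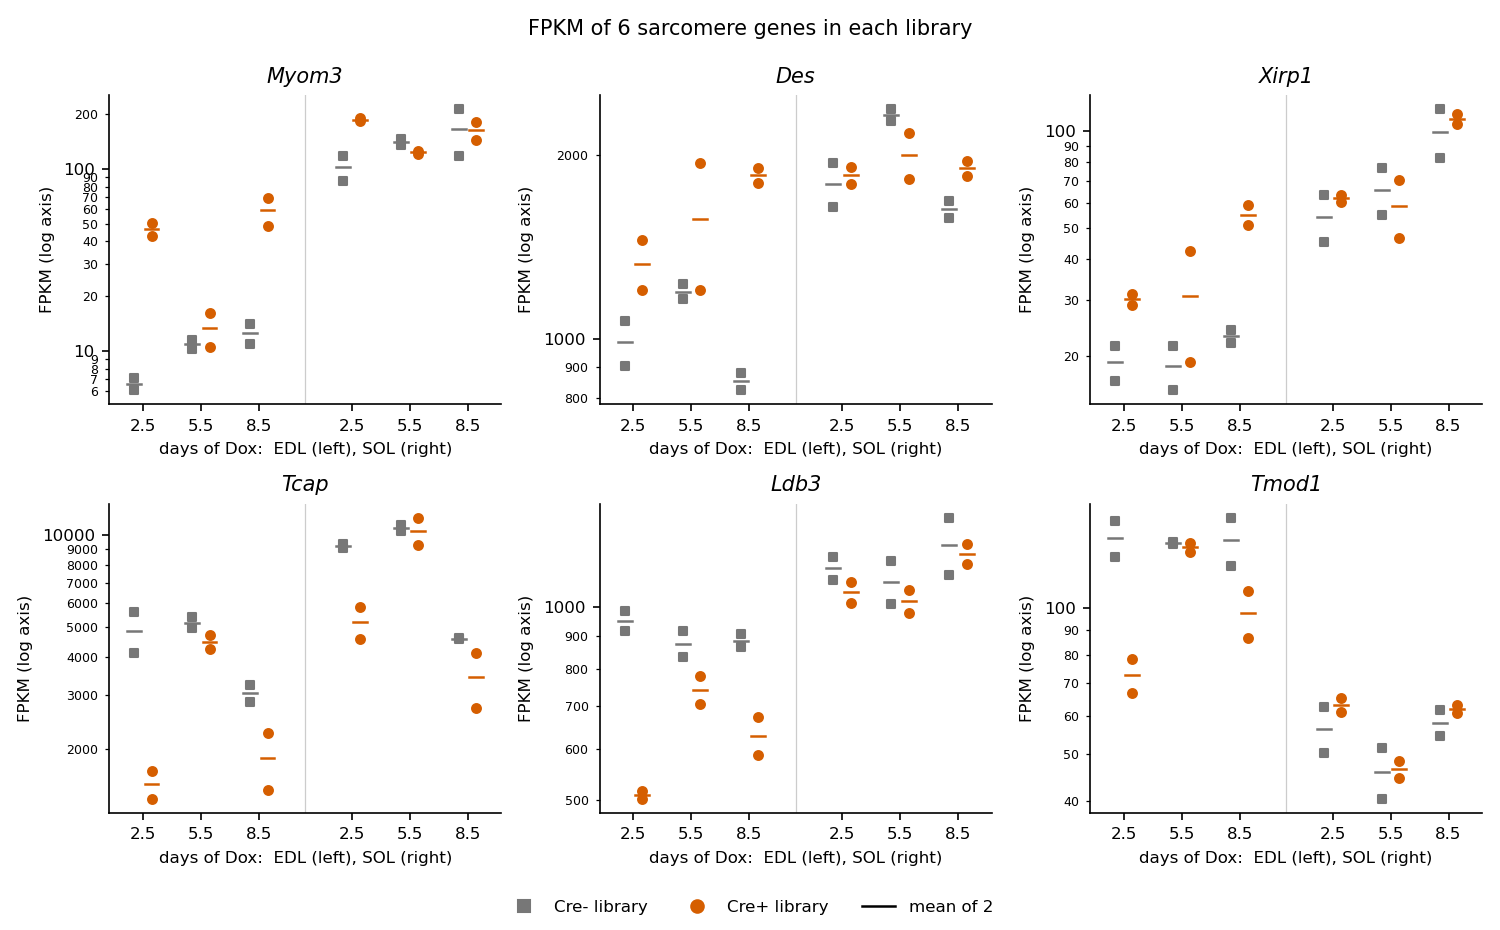
FPKM (log axis) of Myom3, Des, Xirp1, Tcap, Ldb3 and Tmod1 in each of the 24 libraries, by muscle and days of Dox, with bars for the mean of 2 libraries. In EDL the Cre+ circles of Myom3 lie above the Cre- squares at 2.5 and 8.5 days, and those of Tcap, Ldb3 and Tmod1 lie below, while in SOL those of Ldb3 and Tmod1 lie close to the squares (-0.28 and 0.01 at 2.5 days on the log2 scale).

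At 8.5 days fewer of the genes had changed in EDL. Of the 46, 8 fell (6.5% of all genes) and 3 rose (7.63% of all genes), with a median log2 fold change of -0.33, against -0.02 over all genes. All 8 were among the 21 that fell at 2.5 days, with control libraries of their own at each day. They were Tnnt3 (-0.86), Tnni2 (-0.89), Tpm2 (-0.89), Neb (-0.88), Tcap (-0.87), Myom1 (-0.79), Ldb3 (-0.67) and Tmod1 (-0.67). Tpm2 was at 3032 and 2942 FPKM in Cre- EDL and 1634 and 2003 in Cre+ EDL, and Tcap at 3232 and 2849 against 1467 and 2258, both without overlap. These falls depended on single libraries. With 1 of the 4 EDL libraries of 8.5 days left out, the call was lost in 4 fits for Tnnt3 and in 3 for Tcap. It was lost in 2 each for Tnni2, Neb, Myom1 and Tmod1, and in 1 each for Tpm2 and Ldb3. The log2 values in these fits were -1.10 to -0.65 for Tnnt3 and -1.28 to -0.56 for Tcap. On the 4 libraries alone edgeR called 0 falls and DESeq2 9. Scaling by library size alone gave 5 falls and 4 rises and moved the median of all genes to 0.16. Over all 15372 genes it gave 542 falls and 1956 rises.

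The other 2 genes that rose at 8.5 days were Des, desmin, and Xirp1, a Xin protein of adhesion sites and damaged sarcomeres. Des (chr1:75360292-75368579) was at 879 and 825 FPKM in Cre- EDL and 1909 and 1803 in Cre+ EDL, with both Cre+ libraries above both controls (log2 0.94 ± 0.18, adjusted p = 0.00416). Xirp1 (chr9:120013755-120023598) was at 22.1 and 24.1 against 58.8 and 51.1 (1.07 ± 0.19, adjusted p = 0.00255). At 2.5 days the Cre+ levels were 1449.9 and 1201 for Des and 29.0 and 31.2 for Xirp1, above controls of 1071 and 905 for Des and 21.6 and 16.7 for Xirp1, and neither passed (log2 0.10 and 0.32). Both genes were higher in SOL than EDL of controls, and Cre- SOL at 8.5 days held 1684 and 1580.4 FPKM of Des and 82.4 and 117 of Xirp1. Lmod2 was at 87.5 and 73.1 against 158 and 146 without overlap and did not pass (log2 0.74 ± 0.24, adjusted p = 0.057). Des overlaps Gm15179 on the other strand.

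Markers of other cells were read beside these changes. At 8.5 days, 0 of 5 tendon, 0 of 5 fibroblast, 0 of 6 macrophage, 0 of 5 smooth muscle and 0 of 5 satellite cell markers passed the test in EDL, by edgeR and by DESeq2, and 1 of them, a satellite cell marker, had an unadjusted p under 0.05. Their summed FPKM in Cre- and Cre+ EDL was 471 to 581 and 792 to 915 for tendon, 1036 to 1080.4 and 1272 to 1695 for fibroblasts, and 86.1 to 97.2 and 109 to 139 for macrophages. The sums were 53.7 to 81.6 and 54.4 to 63.4 for smooth muscle, which also makes desmin, and 5.34 to 5.93 and 6.70 to 6.87 for satellite cells. Liver transcripts (Alb, Apoa1, Apoa2, Ttr and Serpina1c) summed to 6.56 to 6.88 in Cre- and 0.80 to 1.01 in Cre+ EDL, and 4 of the 5 were lower. None of these markers was at 0 in both libraries of a group, and their part in the results was not tested.

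In SOL 0 of the 46 genes passed at 2.5 days (0.384% of all genes did) and 0 at 8.5 days (0.631%). Unadjusted p under 0.05 was reached by 6 and 3 of the 46 genes, and by 2053 and 1015 of all 15372 genes. On the same libraries DESeq2 called 2 falls at 2.5 days (Tcap and Tnni2) and 1 rise at 8.5 days (Myoz3). On the 4 libraries of each comparison alone it called 7 falls and 1 rise (Myom3) at 2.5 days and 3 rises at 8.5 days (Myoz3, Myl6b and Xirp2). The shares of all genes above are those of edgeR, so the DESeq2 counts cannot be set against them. The median log2 fold change of the 46 was -0.18 and -0.05. Tcap was at 9058 and 9366 FPKM in Cre- SOL and 4581 and 5841 in Cre+ SOL at 2.5 days, without overlap, with a log2 value of -0.97 ± 0.28 (adjusted p = 0.156). Myoz3 was at 18.7 and 15.8 in Cre- SOL and 50.6 and 38.2 in Cre+ SOL at 8.5 days, the lowest adjusted p of the 46 in SOL (0.0742, log2 1.32 ± 0.29). In EDL the Myoz3 values of 8.5 days overlapped (103 and 82.3 against 101 and 117). Myom3 was at 86.3 and 118 FPKM in Cre- SOL and 184 and 190.0 in Cre+ SOL at 2.5 days, without overlap (log2 0.72 ± 0.25, adjusted p = 0.228), and the groups overlapped at 8.5 days.

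The change in EDL differed from that in SOL for 3 of the 46 genes at 2.5 days, 1 toward a larger rise in EDL (3.36% of all genes) and 2 toward a larger fall (0.891% of all genes). Myom3 changed by 2.49 in EDL and 0.72 in SOL, a difference of 1.77 ± 0.35 (adjusted p = 0.0163). Tmod1 changed by -1.27 and 0.01, a difference of -1.28 ± 0.26 (adjusted p = 0.0168). Ldb3 changed by -1.23 and -0.28, a difference of -0.95 ± 0.21 (adjusted p = 0.0291). At 8.5 days Myom3 again differed, with 2.06 in EDL and -0.04 in SOL and a difference of 2.10 ± 0.35 (adjusted p = 0.0265), 1 gene upward (0.533% of all genes) and 0 downward (0.0585%). At 8.5 days 13 of the 46 genes had an unadjusted p under 0.05 in either direction, and DESeq2 called 6. Over all 15372 genes 1729 had such a p. With the replicate number as a block, 5 genes differed at 2.5 days (Mylk4 and Myoz3 in addition) and 2 at 8.5 days (Xirp1 in addition).

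These calls depended on single libraries, and each was lost in some of the fits with 1 library left out. At 2.5 days the difference in these fits was 1.56 to 1.96 for Myom3, -1.45 to -1.12 for Tmod1 and -1.05 to -0.87 for Ldb3. At 8.5 days that of Myom3 was 1.66 to 2.43.

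No gene of the 46 changed differently in EDL at 8.5 than at 2.5 days (0.0% of all genes did). An unadjusted p under 0.05 was held by 13 of the 46 and by 1469 of all 15372 genes, and DESeq2 called 2 of the 46 (Lmod3 and Des). Without the first Cre+ EDL library of 2.5 days some of the genes did differ, and the share of all genes in that fit is not given. The change was higher at 8.5 days for 38 of the 46. Lmod3 had the lowest adjusted p (0.217), with -0.64 at 2.5 days and 0.25 at 8.5 days. Des and Tcap differed by 0.84 ± 0.25 and 1.12 ± 0.39. The smaller count of falls at 8.5 days was therefore not shown to differ from that at 2.5 days.

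At 5.5 days, fitted with all 24 libraries, 0 of the 46 genes passed in EDL (0.304% of all genes did) and 0 in SOL (0.0%). An unadjusted p under 0.05 was reached by 6 of the 46 genes in EDL and 1 in SOL, and by 1307 and 597 of all 15478 genes. DESeq2 on the 4 libraries called 1 of the 46 in EDL (Mylk4) and 0 in SOL. The 2 Cre+ EDL libraries differed from each other in the genes that rose at 8.5 days. The second, with 27.7 FPKM of Pou5f1, held 1945 FPKM of Des, 42.4 of Xirp1 and 16.2 of Myom3. The first, with 1.02 FPKM of Pou5f1, held 1203, 19.2 and 10.5. The controls held 1162 and 1229 of Des, 21.6 and 15.7 of Xirp1 and 11.5 and 10.2 of Myom3. Tcap did not follow Pou5f1 between the 2 libraries, at 4723 in the second and 4228 in the first. Both were below the controls, at 4957 and 5383, and Tcap did not pass.

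Split by fibre class, 6 of the 10 fast genes and 1 of the 11 slow genes (Mybpc1) fell in EDL at 2.5 days (10.2% of all genes). The medians were -0.92 and -0.30. Actn2, the slow partner of Actn3 in the shares but outside the slow class, fell as well (-0.78). At 8.5 days 2 fast and 0 slow genes fell (6.5% of all genes), with medians of -0.33 and -0.48. Slow genes in EDL had larger standard errors (Myl2 0.71, Tnni1 0.68) than fast ones (Tnni2 0.23, Myoz1 0.23), so changes of the same size could pass in one class and not in the other. The slow shares of Cre+ and Cre- EDL overlapped in 9 of 9 pairs at 8.5 days and in 8 of 9 at 2.5 days, where that of myozenin was 5.44% and 3.02% in Cre- and 5.95% and 8.93% in Cre+. For troponin I it was 0.235% and 0.0732% in Cre- and 0.151% and 0.692% in Cre+ EDL at 2.5 days. At 8.5 days it was 0.688% and 0.163% in Cre- and 0.684% and 0.518% in Cre+ EDL. In SOL it was 21.2% and 18.3% against 30.4% and 24.6% at 2.5 days, without overlap. At 8.5 days it was 30.7% and 37.4% against 39.9% and 30.5%, with overlap. The slow shares of troponin T, troponin C, tropomyosin and alpha-actinin were also higher in Cre+ SOL at 2.5 days without overlap. Those of the other pairs overlapped. At 8.5 days the shares of both light chains were lower in Cre+ SOL without overlap, and those of all other pairs overlapped.

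Control libraries themselves differed between the days for Mylk4. In Cre- EDL it was at 588 and 399.6 FPKM at 2.5 days, 578 and 582 at 5.5 days and 78.1 and 85.8 at 8.5 days, and in Cre- SOL at 62.1 and 72.4 at 2.5 days, 48.7 and 62.0 at 5.5 days and 14.8 and 16.5 at 8.5 days. The log2 difference of 8.5 against 2.5 days was -2.64 ± 0.36 in EDL (adjusted p = 0.00774) and -2.14 ± 0.36 in SOL (adjusted p = 0.00803). It was the 1 gene of the 46 that was lower at 8.5 days in either muscle, where 0.384% of all genes in EDL and 0.852% in SOL were. In EDL 0 genes were higher (0.364% of all genes) and in SOL 1 gene, Xirp1 (log2 0.83), against 2.78% of all genes, a call lost without the second Cre- SOL library of either day. Within 8.5 days Mylk4 was at 55.9 and 72.9 in Cre+ EDL and did not pass against its controls (log2 -0.52). The call was lost without the first Cre- EDL library of 2.5 or of 8.5 days, and in SOL without the second Cre- library of 2.5 days or either Cre- library of 8.5 days. Clock genes differed between the same control libraries. Arntl was higher at 8.5 days by 2.17 in EDL and 3.10 in SOL, and Per3 held -1.19 and -1.83 (all 4 past the thresholds). Of the 5 clock genes read, 3 passed in EDL and 5 in SOL. They were read after the data were seen. The control libraries of 8.5 days also held more liver transcripts, with sums of 6.56 to 6.88 FPKM in EDL and 19.6 to 103 in SOL, against 0.99 to 1.29 and 0.58 to 0.59 at 2.5 days. Neutrophil markers summed to 1.41 to 6.19 in EDL and 1.49 to 22.7 in SOL at 8.5 days, against 0.41 to 1.22 and 0.28 to 0.85 at 2.5 days. The part of these genes in the Mylk4 and Xirp1 values was not tested. The labels give no time of day. This comparison of days was also added after the data were seen.

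**Figure D5:**
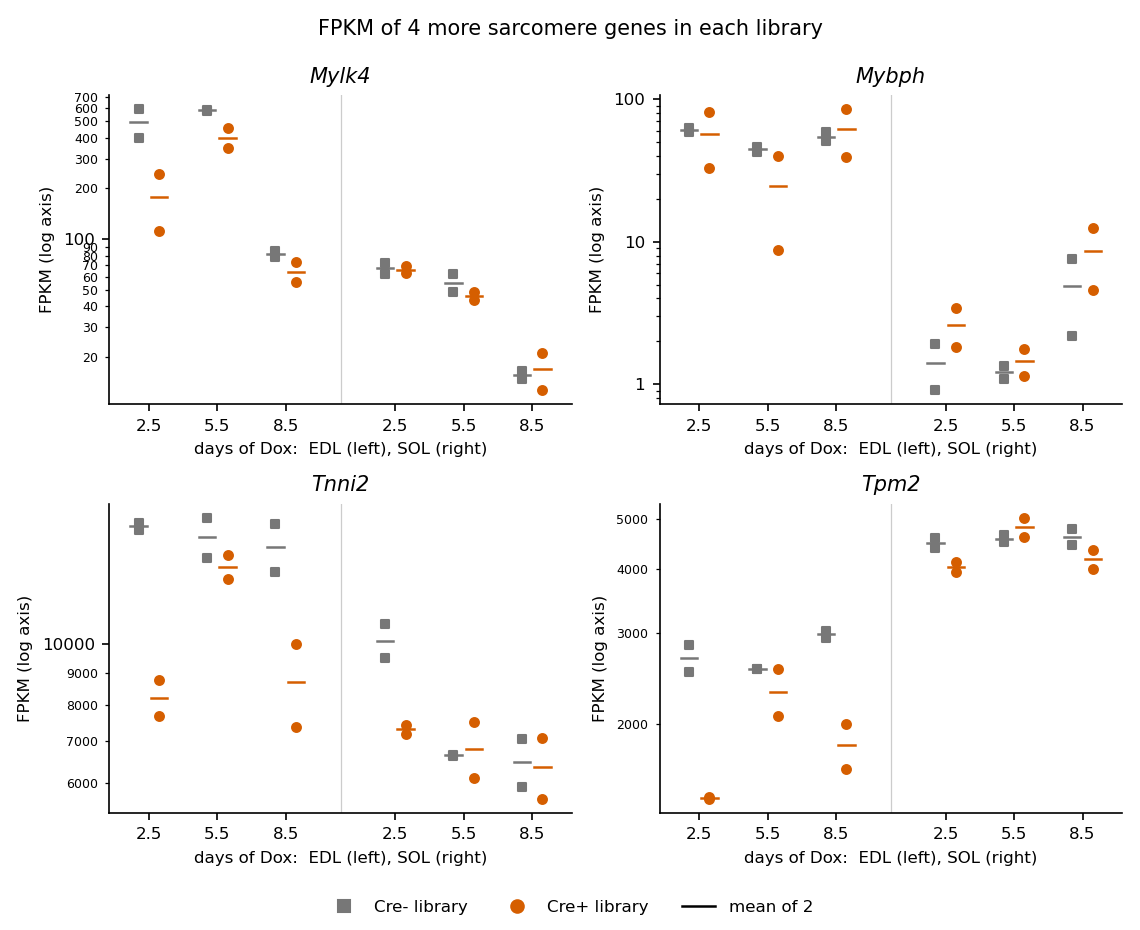
FPKM (log axis) of Mylk4, Mybph, Tnni2 and Tpm2 in each library, by muscle and days of Dox, with bars for the mean of 2 libraries. Mylk4 is lower at 8.5 days in controls (squares) of both muscles, and Tnni2 and Tpm2 are lower in Cre+ (circles) than Cre- EDL at 2.5 and 8.5 days.

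Other genes, not all of them of the sarcomere, were read beside the 46. Over all genes 10.2% fell and 13.8% rose in EDL at 2.5 days, and 6.5% and 7.63% at 8.5 days. Of 35 more genes of the Z-disc, M-band, chaperones and ligases, 16 fell and 0 rose in EDL at 2.5 days, and 4 fell and 0 rose at 8.5 days, with medians of -0.54 and -0.29. The 3 largest mean changes among genes past the thresholds at both days were those of the leiomodin Lmod1 (-1.33 and -1.56), the LIM protein Fhl3 (-1.39 and -1.12) and the kinase Speg (-1.43 and -0.94). Cardiac and embryonic isoforms (Tnnt2, Tnni3, Myl4 and the non-muscle Actn1) had 0 of 4 calls at either day by edgeR, with 2 and 0 at an unadjusted p under 0.05 and 1 and 0 calls of the 6 listed by DESeq2. Of 6 genes of non-muscle, smooth or cardiac light chains and kinases, 2 fell at 2.5 days (Myl9 -0.84 and Mylk -0.65) and 0 passed at 8.5 days, by edgeR and by DESeq2, with 2 at an unadjusted p under 0.05. The smooth muscle marker list also held 2 falls of 5 at 2.5 days. The part of smooth muscle cells in the values of Lmod1, Myl9 and Mylk was not tested. Of 13 regulators of fibre type and muscle genes, 7 fell and 2 rose at 2.5 days and 8 fell and 1 rose at 8.5 days. The 3 largest past the thresholds at both days were the coactivator Ppargc1a (-0.98 and -1.07), Tbx15 of fast fibres (-0.99 and -0.91) and Srf, which binds the SRF motif (-1.03 and -0.68). Mef2d rose (0.59 and 0.82), and Prox1, a regulator of slow genes, rose at 2.5 days alone (1.26, and 0.03 at 8.5 days).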

How the data were processed

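Polyadenylated RNA libraries of mouse EDL and SOL were aligned by the authors to mm10 with STAR 2.5.3a after FastQC 0.11.2 and counted with HOMER (tools and versions per the submitters' processing notes). The deposited values are raw counts per gene, with no normalization, and the strand setting of the counting is not given in the sources used here. FPKM was computed here from the counts and the listed transcript lengths. The 46 genes, the roles, the fast and slow classes and the other lists were chosen with earlier results of these data known.

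Tests used edgeR 4.0.16 (R 4.3.3, limma 3.58.1), with its filter on low counts, TMM scaling and the quasi-likelihood test on 8 groups of 2.5 and 8.5 days (15372 genes). The 5.5 day comparisons came from a fit of all 12 groups (15478 genes). A call needed a Benjamini-Hochberg adjusted p under 0.05 over all genes and a log2 fold change beyond 0.5 in size. On simulated counts for the EDL comparison of 2.5 days, edgeR recovered 105 of 200 genes changed 2-fold with 3 other calls over 15372 genes, and DESeq2 114 with 21. Of the same 200 genes, changed in Cre+ EDL of 2.5 days alone, edgeR called 25 for the difference between muscles. Genes were named by rule: both genes of each isoform pair, the 5 largest rises and falls among other members per comparison of genotypes, and the 3 largest in each direction between muscles. Other members stand with their role, and Lmod2, Lmod3 and Actn3 were singled out after their values were seen. Slow shares and shares of all counts had no test.

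Alternatives were DESeq2 1.42.0 on the same or the 4 libraries, other scalings, filters, thresholds and library sets, leaving out each library, and the replicate number as a block. As a check of pairing, deviations of same-numbered EDL and SOL libraries correlated by 0.173 to 0.445 over genes. Those of Cre+ and Cre- correlated by -0.169 to 0.0578. The labels do not say what the numbers stand for, so a shared mouse and shared handling cannot be told apart. The main tests used no block.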

Additional observations from a re-analysis of the deposited data

Results flagged for a closer look

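By edgeR's quasi-likelihood test of the difference itself, the change with Cre differed between EDL and SOL for 3 of the 46 genes at 2.5 days. At 8.5 days it differed for 1. At 2.5 days 1 gene went upward (3.36% of all genes) and 2 downward (0.891% of all genes). The 1 gene of 8.5 days went upward (0.533% of all genes), and 0 went downward (0.0585%). For Myom3 the change was larger in EDL by 1.77 on the log2 scale at 2.5 days (adjusted p = 0.0163) and by 2.10 at 8.5 days (adjusted p = 0.0265). For Tmod1 the difference at 2.5 days was -1.28 (adjusted p = 0.0168) and for Ldb3 it was -0.95 (adjusted p = 0.0291). All 8 libraries of a day entered each test, with 2 per group. The Myom3 call was lost in 5 of 8 fits with 1 library left out at 2.5 days and in 4 of 8 at 8.5 days, the Tmod1 call in 5 of 8 and the Ldb3 call in 7 of 8. Levels of Pou5f1 were lower in SOL than in EDL of the same Cre+ groups, and their part in these differences was not tested.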

How the results depend on the processing

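No call of a named gene turned its direction under any alternative. The counts below are of the sarcomere genes alone, and the share of all genes called under each setting is not given beside them. With an absolute log2 fold change over 1, 12 genes were higher in EDL than SOL of Cre- mice, 10 fell in EDL at 2.5 days and 0 at 8.5 days, and 0 were higher at 8.5 than 2.5 days in Cre- SOL. With scaling by library size alone, 2 rose in EDL at 2.5 days, 5 fell in EDL at 8.5 days, 1 rose in SOL at 8.5 days and 2 were lower at 8.5 than 2.5 days in Cre- SOL. With all 24 libraries in the fit, 9 changes differed between muscles at 2.5 days, 1 gene rose in SOL at 8.5 days, and in Cre- SOL 0 were higher and 2 lower at 8.5 days. Without a filter on low counts these were 5, 1 and 3 lower. DESeq2 on the same libraries called 2 falls in SOL at 2.5 days, 1 rise in SOL at 8.5 days, 9 and 6 differences between muscles, 2 between days in EDL, 1 gene higher at 8.5 days in Cre- EDL and 5 lower in Cre- SOL. On the 4 libraries of a comparison DESeq2 called 1 rise and 7 falls in SOL at 2.5 days, 3 rises in SOL at 8.5 days and 1 gene in EDL at 5.5 days, while edgeR called 1 fall in SOL at 2.5 days and 0 falls in EDL at 8.5 days. With 1 muscle per fit, 2 fell in EDL at 8.5 days, and between days 0 were lower in Cre- EDL, and 0 higher and 2 lower in Cre- SOL. The replicate block gave 5 differences between muscles at 2.5 days and 2 at 8.5 days, and moved no other count by over 1.5 times.

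Leaving out 1 library at a time gave 16 to 19 genes higher and 19 to 22 lower in EDL than SOL of Cre- mice, 8 to 24 falls in EDL at 2.5 days and 0 to 7 at 8.5 days. It gave 0 to 11 differences between muscles at 2.5 days, 0 to 3 at 8.5 days and 0 to 4 between days in EDL. Between days in controls it gave 0 to 1 higher and 0 to 1 lower in EDL, and 0 to 1 of each in SOL. The causes of these shifts were not tested, and the share of all genes called in the same fits is not given. A share of counts without mitochondrially encoded genes was not run, since the table lists none. Leaving out a library left 1 in its group, which was assumed to vary like the other groups. With 2 libraries per group, and 105 of 200 simulated 2-fold changes recovered in EDL at 2.5 days and 25 in the difference between muscles, a gene that was not called is not shown to be unchanged. Of the genes, 7 overlap a gene on the other strand.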
